A study of Mus musculus with 22 samples.

Results

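The immunity-related GTPases, also called p47 GTPases or IRG proteins, were followed in the mouse hypothalamus through 5 genes: Igtp, Irgm1, Irgm2, Ifi47 and Iigp1. They were found by symbol in the platform annotation, which holds 28815 probe sets and gave 19935 genes with a probe set of their own. Of the 5 genes, 2 had such a probe set, Irgm1 and Iigp1. Irgm2 and Igtp are both listed for 1 probe set and Ifi47 shares its probe set with the olfactory receptor gene Olfr56, so these are reported as the Irgm2 and Igtp probe set and the Ifi47 and Olfr56 probe set, and their signal is assigned to neither gene. The 5 genes are therefore read through 4 measurements. Arrays were made from C57bl6 male mice aged 9 to 12 weeks that were either deficient in interleukin-6 (IL-6 KO) or wild-type littermates of them (WT). Each mouse was given 120 µg/kg of lipopolysaccharide (LPS, a cell wall component of Escherichia coli) or saline by intraperitoneal injection, and the hypothalamus was taken 3 h later after perfusion with saline. There were 7 arrays of WT after LPS, 4 of WT after saline, 7 of IL-6 KO after LPS and 4 of IL-6 KO after saline. The series asked which genes differ between the genotypes after LPS, as a possible reason for the absent fever of IL-6 KO mice.

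IRG proteins are GTPases that cells make in response to interferons, above all interferon gamma, and that protect mouse cells against bacteria and protozoa living in vacuoles. Irgm1, Irgm2 and Igtp (also named Irgm3) are the regulatory members: they sit on the membranes of the cell's own compartments and keep the effector members inactive there. Iigp1 (Irga6) and Ifi47 (Irgd) are effector members, which, like Tgtp1 and Tgtp2 (Irgb6), load onto the vacuole around a pathogen and break its membrane, together with the guanylate-binding proteins and with part of the autophagy machinery. Transcription of the family is known to run through a pair of DNA elements, the GAS element, which answers to interferon gamma, and the ISRE, which is bound by interferon regulatory factors.

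The promoters of the regulatory members are shown first because each holds at least 1 match to these elements just before the start of transcription. RefSeq's promoter table of GRCm38.p6 held 4 of the 5 members and gives 300 bases of each, 250 before the start and 50 from it onwards. The search used TTCNNNGAA for GAS, which is its own reverse complement, and GAAANNGAA, or TTCNNTTTC on the other strand, for the core of the ISRE. These patterns share letters and can overlap. Matches are in capitals.

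Igtp: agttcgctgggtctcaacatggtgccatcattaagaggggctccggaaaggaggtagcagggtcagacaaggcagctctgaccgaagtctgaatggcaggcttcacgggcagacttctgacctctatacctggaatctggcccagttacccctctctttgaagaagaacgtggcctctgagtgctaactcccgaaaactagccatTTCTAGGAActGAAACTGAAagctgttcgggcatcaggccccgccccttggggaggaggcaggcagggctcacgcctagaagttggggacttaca

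Irgm2: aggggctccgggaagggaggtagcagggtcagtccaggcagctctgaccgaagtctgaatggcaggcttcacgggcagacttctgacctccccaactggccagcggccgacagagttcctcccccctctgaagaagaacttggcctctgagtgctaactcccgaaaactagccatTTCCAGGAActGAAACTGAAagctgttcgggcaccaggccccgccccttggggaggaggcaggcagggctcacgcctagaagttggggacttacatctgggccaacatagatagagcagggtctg

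Irgm1: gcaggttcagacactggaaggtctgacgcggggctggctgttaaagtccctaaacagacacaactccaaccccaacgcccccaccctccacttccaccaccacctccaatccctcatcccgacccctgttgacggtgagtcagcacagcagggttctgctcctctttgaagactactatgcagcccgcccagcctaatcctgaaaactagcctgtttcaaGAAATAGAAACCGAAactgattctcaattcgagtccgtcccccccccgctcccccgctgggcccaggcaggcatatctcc

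The Igtp window (chr11:58199306-58199605, plus strand) held 1 GAS match, TTCTAGGAA, followed after a pair of bases by 1 ISRE core, GAAACTGAA. The Irgm2 window (chr11:58214727-58215026, plus strand) held the same arrangement, with TTCCAGGAA and GAAACTGAA. Aligned over 265 bases, these windows were identical at 244, or 92.1%. The Irgm1 window (chr11:48871371-48871670, minus strand) held no GAS match and 2 ISRE cores that overlap each other, GAAATAGAA and GAAACCGAA. The last base of the ISRE core lay at position -26 from the start in Igtp, at -56 in Irgm2 and at -16 in Irgm1 for the nearer of its pair. The window of Ifi47 (chr11:49076337-49076636, plus strand) held neither string. Of 32851 promoters in the table, 8.3% held at least 1 GAS match, 8.56% held at least 1 ISRE core and 0.624% held at least 2 ISRE cores. A match is a string of letters and no measure of binding, and a window without it says only that these letters are not there.

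The measurements are log2 differences between an array and the median array, since the deposited values are centred on each probe set's median over the 22 arrays. They carry no absolute level, so the level of one gene cannot be set against that of another, and the presence of hypothalamic markers could not be checked. In whole tissue, fewer cells of a type and less RNA per cell cannot be told apart. The Il6 probe set did not separate the genotypes (KO minus WT 0.17 after LPS, adjusted p = 0.397, and 0.02 after saline, adjusted p = 0.982, limma), and which part of the gene was altered is not given in the labels. Some arrays carried transcripts of neighbouring tissue: the choroid plexus gene Ttr lay above 1 in 5 arrays and the pituitary hormone gene Gh in 3, 7 arrays in all. Prl, another pituitary hormone gene, lay at 2.90, 2.74 and 1.66 in those 3. Arrays are numbered here by the number in each sample's title, and the titles do not say what that number stands for. Arrays 1 to 11 and 12 to 22 differed in 4286 of 19935 genes and 5181 of 28815 probe sets in a fit with the 4 groups. None of the 4 IRG measurements was among the features called in that comparison. Their differences (later minus earlier arrays) ran from -0.12 for Irgm1 to 0.21 for Iigp1 (adjusted p = 0.095, limma). Most features were likewise uncalled, so this does not set the members apart.

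All 4 IRG measurements rose with LPS in WT. Iigp1 rose most, 6.12-fold, and Irgm1 rose 3.33-fold. The probe sets of Ifi47 with Olfr56 and of Irgm2 with Igtp rose 2.87-fold and 2.62-fold. A feature was called at an adjusted p under 0.05 in limma, and by this rule 1.42% of genes and 1.26% of probe sets were called higher in WT. Where saline and LPS arrays are said not to overlap, the share of all genes with such a gap was not counted.

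Iigp1, the effector that coats pathogen vacuoles, lay at -2.57, -2.45, -2.09 and -2.33 in the 4 WT saline arrays. In the 7 WT LPS arrays its lowest value was -0.13, the median 0.29 and the highest 0.57. The groups were 1.96 apart at their nearest arrays and did not overlap. The group means were -2.36 ± 0.20 (SD, n = 4) and 0.26 ± 0.23 (SD, n = 7), and the LPS effect was a log2 difference of 2.61 (SE 0.13, adjusted p = 8.4e-13, limma).

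Irgm1, the regulator of the family that has its own probe set, lay at -1.44, -1.74, -1.40 and -1.67 in WT after saline. After LPS its lowest WT value was -0.01, the median 0.09 and the highest 0.55. Every LPS array lay above every saline array, with a gap of 1.40. The group means were -1.56 ± 0.17 (SD, n = 4) and 0.17 ± 0.21 (SD, n = 7), and the effect was 1.74 (SE 0.12, adjusted p = 3.09e-10, limma).

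The shared probe set of the regulators Irgm2 and Igtp read -1.32, -1.14, -1.22 and -1.26 in WT after saline. Its WT LPS values ran from -0.11 through a median of 0.15 to 0.40. Saline and LPS arrays did not overlap, and the mean difference was 1.39 (SE 0.09, adjusted p = 5.33e-10, limma). The probe set of the effector Ifi47 and of Olfr56 read -1.25, -1.32, -1.26 and -1.34 after saline and from -0.11 through 0.13 to 0.49 after LPS. Here too the groups stood apart, with a mean difference of 1.52 (SE 0.11, adjusted p = 4.6e-09, limma). Its WT saline arrays were the most alike of the 4 measurements, with an SD of 0.04 against 0.24 after LPS.

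The same 4 measurements rose in IL-6 KO mice, where 1.08% of genes and 0.951% of probe sets were called higher. Iigp1 was 6.002-fold higher and Irgm1 2.82-fold higher after LPS. The Irgm2 and Igtp probe set was 2.67-fold higher and that of Ifi47 and Olfr56 2.65-fold higher. Iigp1 read -2.55, -2.35, -2.34 and -2.33 in the 4 KO saline arrays. In the 7 KO LPS arrays it ran from -0.17 through a median of 0.22 to 0.59. The gap between the groups was 2.16, and the LPS effect was 2.59 (SE 0.13, adjusted p = 1.07e-12, limma).

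Irgm1 read -1.31, -1.48, -1.34 and -1.50 in KO after saline, and from -0.27 through 0.03 to 0.41 after LPS. Again no saline array reached the lowest LPS array, and the effect was 1.49 (SE 0.12, adjusted p = 5.73e-09, limma). The Irgm2 and Igtp probe set read -1.28, -1.33, -1.12 and -1.23 after saline and from -0.07 through 0.14 to 0.46 after LPS, an effect of 1.42 (SE 0.09, adjusted p = 4.55e-10, limma). The Ifi47 and Olfr56 probe set read -1.29, -1.28, -1.28 and -1.18 after saline and from -0.06 through 0.06 to 0.50 after LPS, an effect of 1.41 (SE 0.11, adjusted p = 1.97e-08, limma). For both shared probe sets the KO groups were more than 1 log2 unit apart, with gaps of 1.05 and 1.12.

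**Figure D1:**
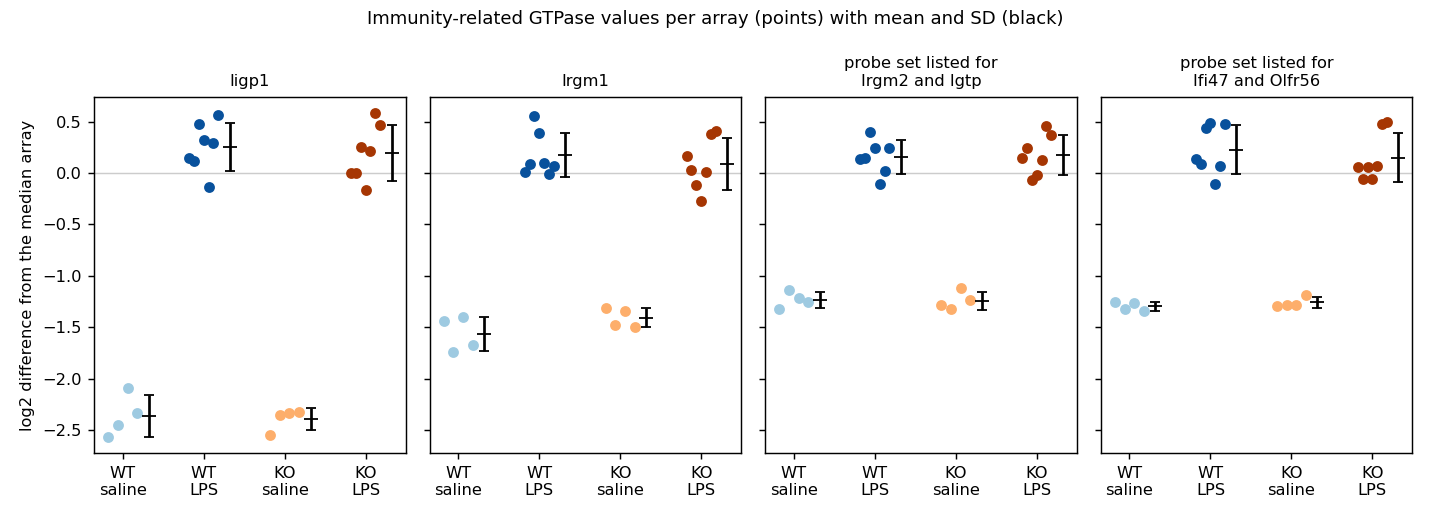
Each point is 1 array; the vertical axis is the log2 difference from the median array, and the black marks give the mean and SD of each group (n = 4 after saline, n = 7 after LPS). In every panel the saline arrays lie below all LPS arrays, while the LPS arrays of the genotypes overlap.

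By size of the LPS effect, Iigp1 came first in both genotypes, and its 95% intervals (2.35 to 2.88 in WT, 2.32 to 2.85 in KO) lay above those of the other 3 measurements. The remaining effects ran in WT from Irgm1 through Ifi47 with Olfr56 to Irgm2 with Igtp. Their intervals overlapped. The measurements share their arrays, so this overlap is no test of the order, and differences between measurements were not tested. Among all 19935 genes, Iigp1 had the 7th largest increase in WT and the 5th largest in KO, and Irgm1 the 17th and 18th. Within arrays 1 to 11 and within arrays 12 to 22, all 4 effects were called in both genotypes, with Iigp1 at 2.56 and 2.76 in WT and at 2.55 and 2.61 in KO. The earlier block holds 1 KO saline array and the later block 1 WT saline array, so a spread shared with the other groups stands in for theirs. Repeating quantile normalization on the deposited values lowered the effect of Iigp1 to 1.45 in WT and 1.42 in KO, and that of Irgm1 to 1.03 and 0.89, all still called. This step acted on centred values and not on array levels, and how far the drop comes from that was not tested.

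The LPS effects were not found to differ between genotypes for any of the 4 measurements. Iigp1 differed by -0.03 (KO effect minus WT effect, 95% interval -0.40 to 0.35) and the Irgm2 and Igtp probe set by 0.03 (-0.24 to 0.30). The Ifi47 and Olfr56 probe set differed by -0.11 (-0.45 to 0.22). The widest difference was that of Irgm1, whose effect was smaller in KO by 0.24 (-0.24, 95% interval -0.59 to 0.10, adjusted p = 0.999994, limma). The intervals bound these differences and do not show that the responses were alike. Over all genes and over all probe sets 0% were called in this comparison, with 327 genes at an unadjusted p under 0.05.

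After LPS the KO and WT arrays overlapped for every IRG measurement. Irgm1 averaged 0.09 ± 0.25 (SD, n = 7) in KO and 0.17 ± 0.21 (SD, n = 7) in WT, a difference of -0.09 (95% interval -0.29 to 0.12, adjusted p = 0.771, limma). Iigp1 differed by -0.06 (-0.29 to 0.17), the Irgm2 and Igtp probe set by 0.02 (-0.14 to 0.18) and the Ifi47 and Olfr56 probe set by -0.08 (-0.28 to 0.12). None of these passed the test, in a comparison that called 0.0401% of genes and 0.0312% of probe sets. After saline the differences were 0.16 for Irgm1 (-0.12 to 0.43), -0.03 for Iigp1 (-0.33 to 0.27), -0.01 for Irgm2 with Igtp (-0.22 to 0.21) and 0.04 for Ifi47 with Olfr56 (-0.23 to 0.30). None passed there either, where 0.00502% of genes and 0.00347% of probe sets were called. The saline intervals use a spread shared over all 4 groups, LPS arrays included. Fitted on the saline arrays alone, the SE fell from 0.13 to 0.08 for Irgm1 and from 0.15 to 0.10 for Iigp1. It fell from 0.10 to 0.06 for Irgm2 with Igtp and from 0.13 to 0.05 for Ifi47 with Olfr56, and 0 were called. The comparisons after LPS and after saline share their arrays with the LPS effects above. The genotypes were unevenly spread over the array blocks. Arrays 1 to 11 held 5 WT LPS, 2 KO LPS, 3 WT saline and 1 KO saline arrays. Arrays 12 to 22 held 2, 5, 1 and 3 in that order. With the block as a term, Irgm1 differed by -0.04 and Iigp1 by -0.15 after LPS. Irgm2 with Igtp differed by 0.03 and Ifi47 with Olfr56 by -0.11. After saline the differences were 0.22, -0.14, -0.0005 and -0.0065 in the same order, and none was called.

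Within the LPS groups, some arrays were high or low in all 4 measurements of the members. KO LPS replicates 6 and 7 lay above their group mean in all 4 measurements, by 0.32 and 0.28 on average, and WT LPS replicates 3 and 4 by 0.26 and 0.16. KO LPS replicate 4 lay below its group mean in all 4, by -0.28 on average, and WT LPS replicate 5 by -0.27. Replicates 1 and 2 of WT LPS were also below in all 4, by -0.10 and -0.09. The mean over 8 guanylate-binding protein genes was likewise lowest within its group in KO LPS replicate 4 (-0.13) and in WT LPS replicate 5 (-0.03). It was highest in KO LPS replicate 7 (0.39) and WT LPS replicate 4 (0.31). Ttr lay above 1 in 3 LPS arrays, at 1.98 in KO LPS replicate 4, 2.80 in WT LPS replicate 5 and 2.43 in WT LPS replicate 2. All 3 were below their group mean in all 4 measurements, as was WT LPS replicate 1 with Ttr at -0.01. Of the saline arrays with Ttr above 1, WT replicate 1 (4.62) lay above its group mean in 2 measurements and KO replicate 2 (1.23) in 1. A link between Ttr and the IRG values was not tested. Without the 7 arrays in which Ttr or Gh lay above 1, the LPS effects were 1.42 to 2.65 in WT and 1.49 to 2.67 in KO, and all 4 were called in both.

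**Figure D2:**
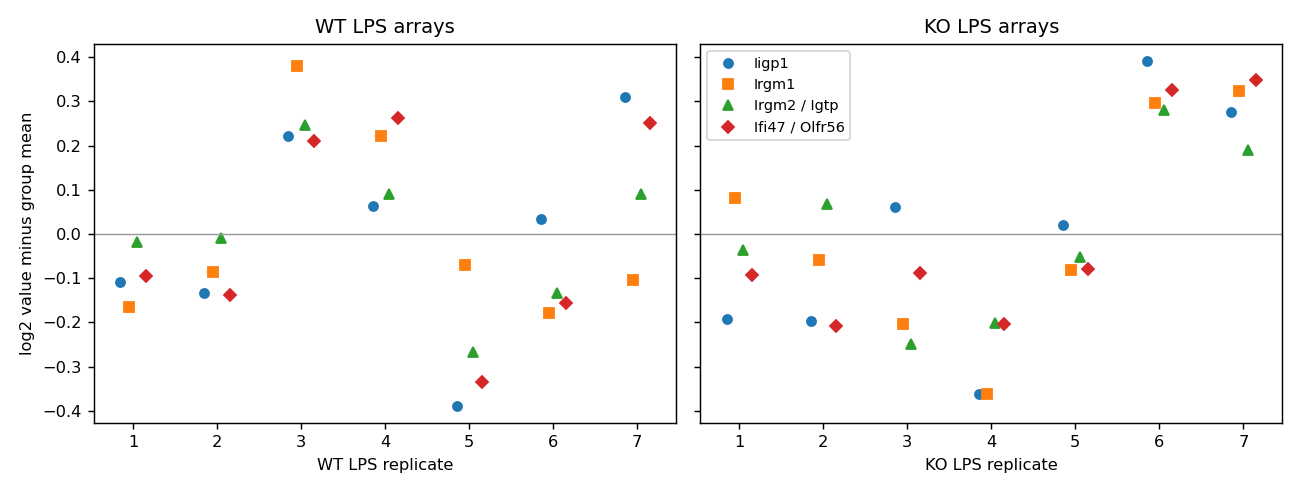
The vertical axis is each LPS array's log2 value minus the mean of its group, with 1 marker for each of the 4 IRG measurements and the replicate on the horizontal axis. KO LPS replicates 6 and 7 lie above 0 and KO LPS replicate 4 below 0 with every marker, and all markers of WT LPS replicate 5 lie below 0.

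The 4 measurements followed similar courses across the 22 arrays. The most alike were the Irgm2 and Igtp probe set and the Ifi47 and Olfr56 probe set, with a root mean square difference of 0.12 log2 units. Irgm1 differed from them by 0.21 and 0.20. Iigp1 stood farthest from the rest, at 0.58 from Irgm1 and 0.71 from the Irgm2 and Igtp probe set. Values were not scaled, so this measure takes in the size of the LPS effect and is not separate from the effects above. Outside the family, the 5 genes nearest to the mean of Irgm1 and Iigp1 were Parp14 (0.14), Ifit3 (0.16), Slfn5 (0.18), Gbp3 (0.21) and Trim30a (0.22), each by the same measure over 22 arrays. The nearest to Irgm1 alone was Trim30a (0.15) and the nearest to Iigp1 alone Slfn5 (0.21). All 5 are known as interferon-induced genes; Parp14 encodes an ADP-ribosyltransferase and rose by 2.05 in WT and 1.90 in KO, and Trim30a encodes a TRIM protein and rose by 1.90 and 1.60.

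Of 14 further IRG genes, 6 had a probe set of their own, and 3 of these rose with LPS in both genotypes. Gm4951 read from -1.19 to -0.81 in WT saline and from -0.13 to 0.89 in WT LPS arrays, and rose by 1.30 (SE 0.16, adjusted p = 1.08e-05, limma) in WT and by 1.27 (SE 0.16, adjusted p = 1.87e-05) in KO. Gm12250, the effector known as Irgb10, which acts on bacterial membranes, rose by 0.88 (SE 0.11) in WT and 0.98 (SE 0.11) in KO. Gm12185 rose less, by 0.21 (SE 0.05, adjusted p = 0.011) and 0.19 (SE 0.05, adjusted p = 0.0349). The Gm12185 increase brings the count to 3: leaving out single arrays gave 2 called genes without WT saline replicate 2 in WT, and without KO saline replicate 1, 2 or 3 or KO LPS replicate 2, 3, 5 or 6 in KO. Irgq, a divergent relative without GTP binding, had effects of -0.04 and -0.01, Irgc1, known from testis, 0.06 and 0.04, and Gm4841 0.02 and 0.08, none of them called. The list's median was 0.14 in both genotypes, against -0.01 over all genes.

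Probe sets listed for pairs of further IRG genes rose as well. Tgtp1 and Tgtp2, both encoding the effector Irgb6, share 2 probe sets. One read from -2.53 to -2.12 in WT saline and from -0.20 to 0.36 in WT LPS arrays, and from -2.60 to -2.37 and -0.11 to 0.40 in KO. Neither pair of groups overlapped, and the increase was 5.54-fold in WT and 6.30-fold in KO (log2 2.47 and 2.66, SE 0.10 each, adjusted p = 1.5e-13 and 4.84e-14, limma). The other gave 4.83-fold and 5.62-fold. The pair of probe sets listed for 9930111J21Rik1 and 9930111J21Rik2 rose by 1.06 and 1.07 in WT and by 1.23 and 1.20 in KO. The difference between genotypes was not called for any of these, with the widest at 0.22 (95% interval -0.09 to 0.53) for the second probe set of Tgtp1 and Tgtp2.

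**Figure D3:**
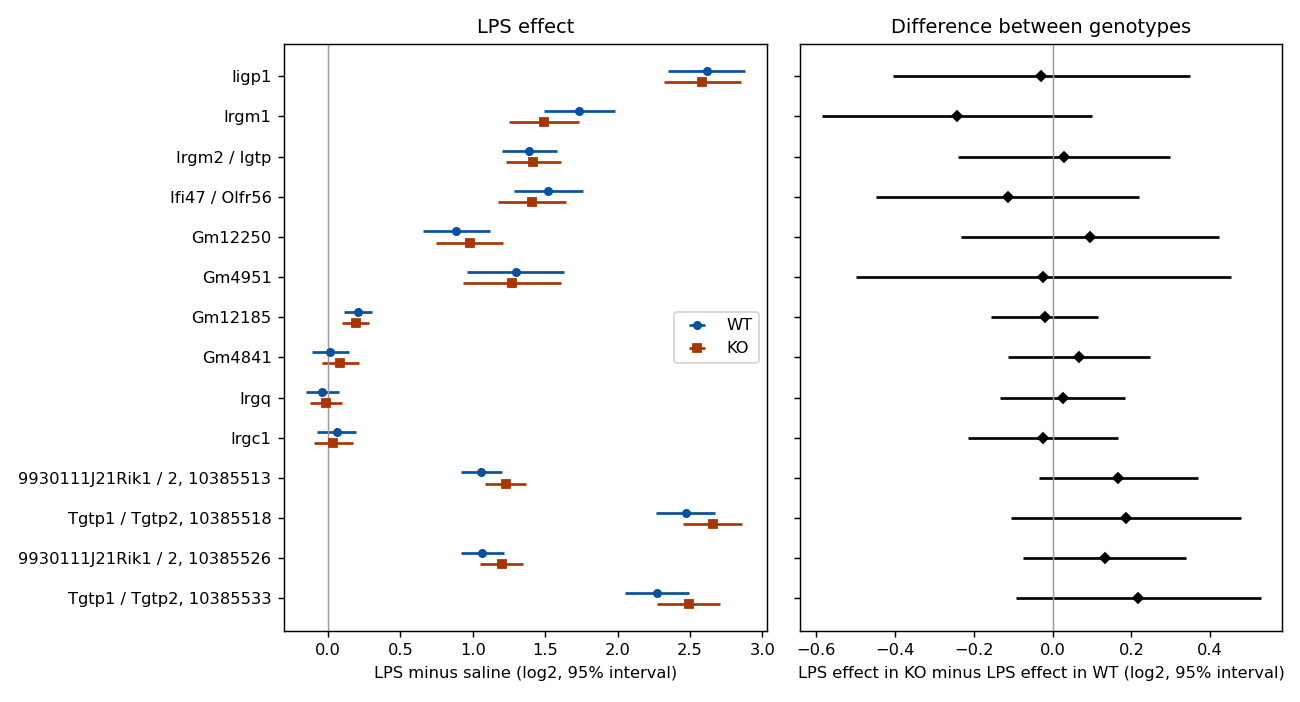
The left panel gives the LPS effect in WT and KO and the right panel the KO effect minus the WT effect, as log2 differences with 95% intervals, for the 4 IRG measurements and 10 of further IRG genes. Iigp1 and the probe sets of Tgtp1 and Tgtp2 have the largest effects, and every interval in the right panel includes 0.

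The guanylate-binding proteins, GTPases that act on the same vacuoles, had 7 of 8 measured genes called higher in WT and 7 of 8 in KO, with median effects of 1.62 and 1.40. Gbp5 rose by 3.13 in both genotypes (SE 0.13), Gbp4 by 2.90 and 3.07 (SE 0.09), Gbp9 by 1.80 and 1.55 and Gbp7 by 1.44 and 1.24. Gbp2b was the uncalled gene, at 0.16 and 0.19. Of 13 measured interferon ligands and receptors 0 were called higher in either genotype. The centred values carry no level, so whether these transcripts lay above background is not known. Il10rb, a receptor chain for interferon lambda and interleukin-10, was called lower in WT (-0.33, SE 0.08, adjusted p = 0.0185, limma) and had -0.25 in KO (adjusted p = 0.201). Decreases were called in 0.376% of genes in WT and 0.256% in KO. Ifng, the gene of interferon gamma, had effects of 0.06 and -0.02 (SE 0.06), Ifnk 0.04 and 0.05, and the receptor gene Ifnar1 -0.10 and -0.07.

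Among JAK, STAT and IRF genes, 5 of 13 measured were called higher in WT and 4 in KO. Irf7, an amplifier of the type I interferon response, rose by 0.91 and 0.98 (SE 0.11). Stat2 rose by 0.43 and 0.38, Nlrc5, an activator of MHC class I genes, by 0.35 and 0.31, and Irf1 by 0.34 and 0.38. Irf9, the DNA-binding partner of STAT2, rose in WT by 0.33 (adjusted p = 0.00579) and had 0.23 in KO (adjusted p = 0.162); the difference between genotypes was -0.10 (adjusted p = 0.999994, limma).

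Of 7 measured feedback inhibitors, 2 were called higher in WT and 1 in KO. Usp18, which blocks signalling at the type I receptor, rose by 1.35 and 1.30 (SE 0.10). Ptpn1, a phosphatase of JAK kinases, rose in WT by 0.34 (adjusted p = 0.0111) and had 0.08 in KO, and the genotypes' effects differed by -0.25 (adjusted p = 0.999994). The WT count became 1 without WT saline replicate 3. Socs3 had 0.26 and 0.15 and Ptpn2 0.19 and 0.06, both uncalled. Of 15 autophagy genes, including Atg3, Atg5, Atg7 and Atg16l1 that load IRG proteins onto vacuoles, 0 were called in either genotype. Their medians were 0.02 in WT and 0.0009 in KO, with Atg7 at 0.07 and 0.02, Map1lc3b at 0.07 and 0.04, Nbr1 at -0.09 and 0.02 and Gabarapl2 at -0.15 and -0.07.

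Markers of blood leukocytes held no called gene. Of 12 T and NK cell markers and of 11 neutrophil and monocyte markers 0 were called in either genotype. Whether these transcripts lay above background is not known from centred values. The array means of the neutrophil and monocyte list ran from -0.04 to 0.02 in WT saline and from -0.01 to 0.08 in WT LPS arrays, and those of the T and NK list from 0.002 to 0.07 and from -0.02 to 0.06. Of 13 microglia and macrophage markers 1 was called lower in WT, the fractalkine receptor Cx3cr1 (-0.46, SE 0.08, adjusted p = 0.00123, limma). It had -0.25 in KO (adjusted p = 0.273). Markers of astrocytes (10), neurons (12), choroid plexus (9) and pituitary (9) had 0 called in either genotype. Alas2 alone measured red blood cells, with effects of -0.03 and -0.003.

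Most endothelial markers fell with LPS. Of 13 measured, 9 were called lower in WT and 8 in KO and 0 higher. Over all genes, 0.376% were called lower in WT and 0.256% in KO. Among the called markers were the tight-junction gene Cldn5 (-1.14 and -1.08), the transporter Slco1a4 (-1.43 and -1.08) and the receptor genes Tek (-0.74 and -0.65) and Kdr (-0.56 and -0.51). Cdh5, the cadherin of endothelial junctions, had 0.31 in WT and 0.13 in KO (adjusted p = 0.147 and 0.999773, limma), and Esam 0.04 and -0.09, all uncalled. The mean over the list ran from 0.23 to 0.38 in WT saline and from -0.18 to -0.10 in WT LPS arrays. In KO it ran from 0.28 to 0.40 and from -0.10 to 0.07. Neither genotype's groups overlapped. The part of these cells in the IRG values was not tested.

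Neighbours of the 5 members were taken from the gene order of RefSeq's GRCm38.p6. The 5 nearest genes with a probe set of their own on each side made up 31 genes besides the members. Genes read only through shared probe sets were skipped wherever they lie, and places are counted without them. Among those skipped are Tgtp1, Tgtp2, 9930111J21Rik1 and 9930111J21Rik2, whose shared probe sets rose with LPS. Of the 31 genes, 4 were called higher in WT and 4 in KO and 0 lower, and the median effect was 0.01 in each genotype. Of the 4, Gm12250 next to Igtp and Irgm2, Gm12185 next to Irgm1 and Gm4951 near Iigp1 are themselves IRG genes. Ifi47 lies beside Gm12185 in the same stretch as Irgm1 and shares most of its measured neighbours. The other is Smim3, near Iigp1, which encodes a small membrane protein and rose by 0.82 (SE 0.09, adjusted p = 1.09e-06, limma) in WT and by 0.50 (SE 0.09, adjusted p = 0.00125) in KO. Its effects differed by -0.31 (SE 0.13, adjusted p = 0.999994). BC023105, directly beside Iigp1, had 0.16 in both genotypes (adjusted p = 0.229 and 0.345), and Trim7 and Olfr1396 near Irgm1 had 0.08 and -0.04 in WT.

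**Figure D4:**
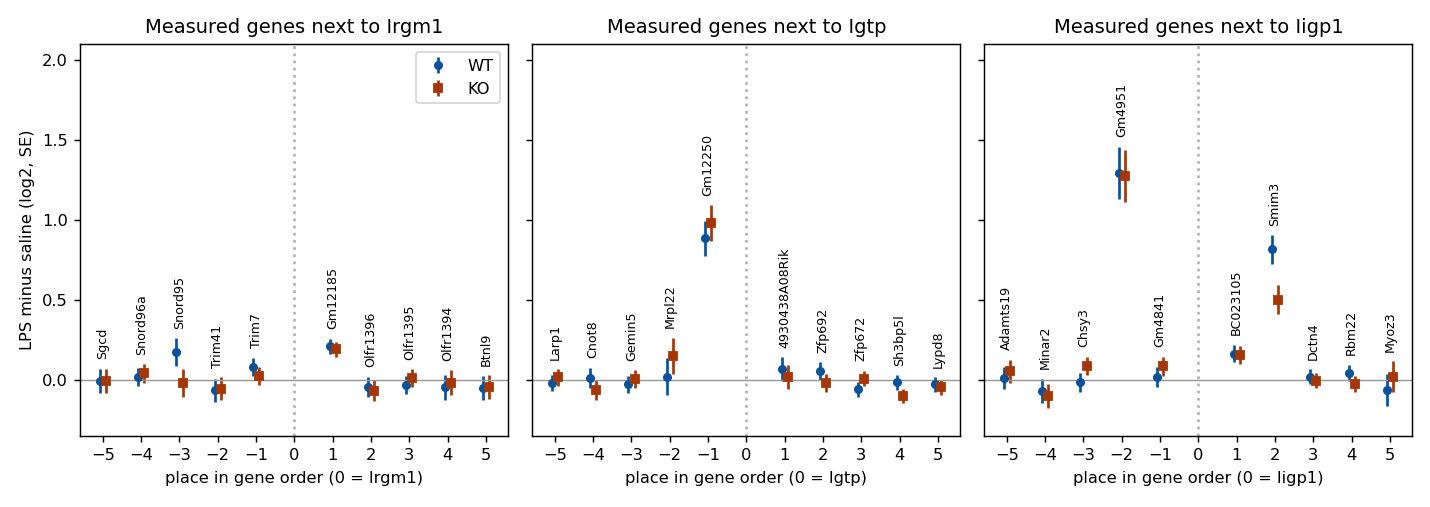
For Irgm1, Igtp and Iigp1, the LPS effect (log2 with SE) in WT and KO of the 5 nearest genes on each side is plotted against their place in the gene order. Only genes with a probe set of their own are counted. Gm12250, Gm4951 and Smim3 stand out from neighbours that lie near 0, and Gm12185 is raised slightly.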

How the data were processed

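RNA of 22 hypothalamus samples (200 ng each) was measured on Affymetrix gene arrays. The authors deposited 1 table of log2 values made with RMA, per the submitters' processing notes; its version and the genome build are not given in the sources used here. Further centring was visible, with every row's median within 7.02e-07 of 0. The log base was taken as 2 because 99.944% of 619799 small values were whole multiples (tolerance 0.03) of the step of single-precision numbers between 4 and 8, where log2 RMA levels lie. Without levels, no filter on dim probes was possible. Precision is limited by the number of arrays.

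Probe sets with 1 symbol (21780, of which 21689 matched RefSeq GRCm38.p6 by gene ID) were averaged per gene. Of the rest, 1605 list several symbols and 5430 none. Since 3 of the 5 members lack a probe set of their own, shared probe sets were fitted in the table of all 28815 probe sets; this was chosen after the annotation was seen.

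limma 3.58.1 in R 4.3.3 fitted 1 mean per group over all 22 arrays, with default empirical Bayes moderation, two-sided contrasts and p-values adjusted by Benjamini-Hochberg over every gene or probe set tested; it was tested on simulated data. Whether each array is a separate mouse is not in the labels, and p-values then cover only the spread among these arrays, which may be technical. Replicate numbers follow deposition order and pair nothing. The members and lists were chosen with earlier results of these data known.

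Genes named are the members, measured IRG genes, up to 4 per list with the smallest p for the LPS effect in WT, the nearest genes by root mean square difference, called neighbours, Il6, Ttr, Gh and Prl. Irf1, Gbp2b, Cdh5, Esam, BC023105, Trim7 and Olfr1396, and the autophagy genes named for their role, fall outside this rule and were added after the values were seen. Most uncalled marker genes were left out for length. Alternatives were array blocks, compared groups only, centring, quantile normalization, array weights, robust moderation, probe sets as the unit, several-symbol probe sets, original symbols, arrays with carried-over tissue and each array left out. A comparison of protein sequences was planned and not run.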

Additional observations from a re-analysis of the deposited data

Results flagged for a closer look

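In 56 groups of 4 to 7 arrays, 3 held an array far from the others by Dixon's criterion, and chance gives about 1 in 20 such groups. Iigp1 read -2.55 in KO saline replicate 1, below the other KO saline arrays, with a gap of 0.891 of the group's range (n = 4). The Ifi47 and Olfr56 probe set read -1.18 in KO saline replicate 4, above the others of its group, with a gap of 0.908 of the range (n = 4). Irgc1 read -0.20 in KO LPS replicate 7, with a gap of 0.616 of the range (n = 7). No difference between genotypes in the LPS effect of an IRG measurement passed the interaction test.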

How the results depend on the processing

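All 4 IRG measurements were called higher with LPS in both genotypes under each of 35 alternatives. None was called for the interaction (34 alternatives) or between the genotypes after LPS or saline (35 each). The alternatives kept the direction of every LPS effect. With probe sets as the unit and with original symbols, the shared probe sets kept the values of the main fit and could not differ. The counts given here include those values. All lowest values came after repeated quantile normalization, which acted on centred values and not on levels. They were 1.45 and 1.42 for Iigp1, 1.03 and 0.89 for Irgm1, 0.96 and 0.97 for Irgm2 with Igtp and 1.04 and 0.94 for Ifi47 with Olfr56 (WT and KO). Of 696 member values under alternatives, 27 turned sign, all of them genotype differences near 0 that were never called. The Ifi47 and Olfr56 difference after saline became -0.0065 with array block as a term and -0.0083 within arrays 1 to 11. Within arrays 12 to 22, Irgm1 after LPS became 0.050 and Irgm2 with Igtp after saline 0.031; the latter was 0.0017 after quantile normalization. Iigp1 after saline became 0.023 with array weights. Without the 7 arrays with Ttr or Gh above 1, an alternative added after the values were seen, the Iigp1 interaction became 0.020 and Irgm1 after LPS 0.044. With single arrays left out, the Iigp1 interaction ran from -0.12 to 0.041 and its saline difference from -0.10 to 0.058. For Irgm2 with Igtp the interaction ran from -0.018 to 0.070, the LPS difference from -0.024 to 0.064 and the saline difference from -0.046 to 0.025. The cause of these turns was not tested. No paired analysis was possible because the replicate numbers follow deposition order and the labels carry none. Centred values give no signal over background. With 4 saline arrays per genotype and a spread shared over all 4 groups, intervals were wide, for Irgm1 from -0.59 to 0.10 in the interaction.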
